A study of Meleagris gallopavo with 8 samples.

Results

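The loci on the sex chromosomes Z and W were examined in the transcript annotation of turkey breast muscle. They were taken as every locus whose lines carry Z or W as the chromosome, which gave 1317 of 23108 loci, 1315 on Z and 2 on W. The samples came from the pectoralis major of birds of the random-bred line RBC2, slaughtered at 22 weeks. Of the 8 birds sampled, 4 gave pale, soft and exudative (PSE) meat with low marinade uptake at 24 h and 4 gave normal meat with high uptake. The study's question was how gene expression in PSE muscle differs from that in normal muscle. No label used here states the sex of the birds. The annotation merges the transcripts assembled in all samples and gives each one a locus, a letter for how it relates to a reference transcript (its class) and the sample assembly it is credited to. It holds no measure of abundance. A table of counts per locus has 8 columns without names, and the level of Z against autosomal loci, the spread between columns and the counts of W loci were not analysed here.

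In birds the male carries a pair of Z chromosomes and the female a Z and a W. Z is large and holds many ordinary genes, and its dosage compensation is known to be incomplete and to act gene by gene. W is small and rich in repeats, and most of its known genes have a partner on Z from which they diverged. Reads from such partners can be hard to assign to one chromosome.

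Marker genes of the labelled tissue and the chromosome of the names on Z were looked up first. All 8 skeletal muscle genes looked up, such as NEB and PVALB, had a transcript tied to a reference, and so did 8 of 10 markers of fibroblasts, fat cells, endothelium, macrophages and red blood cells. PECAM1 and HBA1 were the exceptions under their symbols. Presence in the annotation gives no level, so these markers cannot tell muscle from another tissue. Of the 298 gene names on Z, 198 were found in RefSeq's gene table for Turkey_5.1. That table places 187 of the 198 (94.4%) on Z, 8 on no chromosome and 3 elsewhere. The 3 were ACAA2, a thiolase of fatty acid oxidation, MELK, a kinase of dividing cells, and PTCHD3. On chromosomes 1 to 10, 96.9% of the matched names lay on the same chromosome in both. A further 3 names that the table puts on Z, FANCG, PELO and TESK1, stood on unplaced sequences of the annotation.

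Chromosome W contributed 2 loci with 6 transcripts and 19 exon lines, all between positions 65939 and 114096. The locus XLOC_037170, on the plus strand from 68311 to 114096, carried the protein database entry name Q2QF78_MELGA and no gene symbol. It held 5 transcripts, of which 3 were contained in a reference transcript and 2 had no class, with at most 7 exons and 2344 bases of merged exons. The locus XLOC_037171, on the minus strand from 65939 to 67012, had 1 transcript of 2 exons and 317 bases. It carried the name SNORD121A, that of a small nucleolar RNA, and its class was an overlap with that reference. The name therefore does not show that this spliced transcript is that RNA. SNORD121A was the only name that stood on both Z and W. On Z the name stood on a transcript of 6 exons and 566 bases on the minus strand from 7591284 to 7605971, also an overlap and credited to normal sample 1. Whether the 2 transcripts are copies of each other, and whether their reads were shared between the chromosomes, was not tested.

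All 6 W transcripts were credited to normal samples, 0 to PSE 1 to 4, against 2 to normal 1, 4 to normal 2 and 0 to normal 3 and normal 4. On chromosomes 1 to 10, 89.6% of transcripts were credited to normal samples, so 6 of 6 on W is no contrast between the groups. A merged transcript is credited to a single sample, so a sample without credit can still have held W reads. Credits also differed widely between samples over the whole annotation, from 49 transcripts for PSE 4 to 20486 for normal 1. The W credits therefore separate no samples into females and males. The RefSeq table lists 7 genes on W, all under placeholder symbols, and none of these symbols occurs on the unplaced sequences of the annotation. Placeholder symbols may not be used by the annotation at all, so this match cannot show whether W genes lie there.

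Chromosome Z held 1315 loci, 2184 transcripts and 5115 exon lines from 286946 to 80988706, which is 16.3 loci per Mb over 80.7 Mb. On chromosomes 1 to 10 the density was between 11.4 loci per Mb on chromosome 3 and 25.8 on chromosome 7, so Z lay within their range. What set Z apart was the kind of locus. A gene name stood on 512 Z loci (38.9%), against 8354 of 12365 loci on chromosomes 1 to 10 (67.6%). All 30 numbered autosomes had a higher share, from 54.9% on chromosome 9 to 85.2% on chromosome 23. A reference transcript was attached to 54.1% of Z loci and to 79.0% of loci on chromosomes 1 to 10, where the lowest share was 75.5%.

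Where a reference was attached, Z loci still carried a gene name less often. The share was 71.9% on Z and 85.5% on chromosomes 1 to 10, and 1 of the 30 autosomes, chromosome 9 with 71.3%, lay lower. Among loci with an exact, contained or variant transcript, 262 of 368 Z loci had a name (71.2%), against 3988 of 4576 (87.2%) on chromosomes 1 to 10. Seen from the gene side, RefSeq places 460 protein-coding genes with a proper symbol on Z. A transcript carried the symbol of 193 of them (42.0%), against 55.8% for chromosomes 1 to 10, whose shares ran from 53.5 to 60.6%. With only exact, contained or variant transcripts the shares were 37.0% for Z and 50.4% for chromosomes 1 to 10. A gene named otherwise in the annotation counts as missing here. Names matched less often on Z, where 198 of 298 were in the RefSeq table, against 3496 of 4514 on chromosomes 1 to 10. How much of the lower share on Z comes from naming was not tested.

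**Figure D1:**
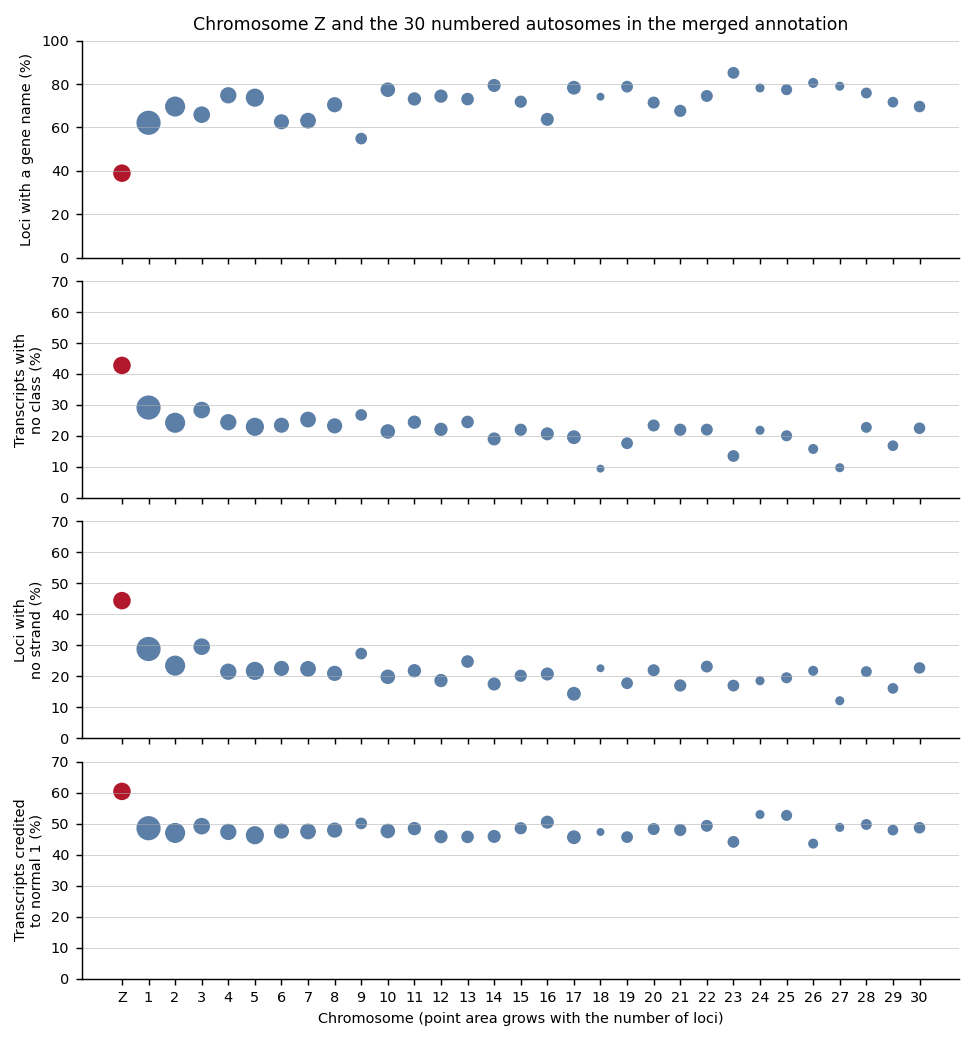
Share of loci with a gene name, of transcripts with no class, of loci with no strand and of transcripts credited to normal sample 1 (y axes, percent) for Z and the 30 numbered autosomes (x axis), 1 point per chromosome with its area growing with the number of loci. Z has the lowest share of named loci (38.9%) and the highest of the other 3 measures (42.8%, 44.4% and 60.4%).

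Transcripts marked with a dot and no class letter, called transcripts with no class here, made up 934 of 2184 on Z (42.8%) and 5809 of 22755 on chromosomes 1 to 10 (25.5%). No autosome passed 29.2%, the value of chromosome 1. No source used here explains the dot. On Z 774 of them (35.4% of all transcripts) also had no reference transcript near them, against 19.8% on chromosomes 1 to 10. Within loci that carry a gene name the shares were close, at 14.1% on Z and 12.5% on chromosomes 1 to 10. All named loci had a reference transcript, which most transcripts with no class lacked. This closeness is therefore partly built into the choice of named loci. Loci made only of such transcripts numbered 619 on Z (47.1%), and the share on chromosomes 1 to 10 was 22.6%.

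Loci with no strand numbered 584 on Z (44.4%), and none of them had a transcript of more than 1 exon. On chromosomes 1 to 10 the share was 24.4%, and no autosome exceeded the 29.5% of chromosome 3. Among loci with a gene name both shares were lower, at 22.7% on Z and 12.6% on chromosomes 1 to 10. The difference was smaller in percentage points, though not clearly so relative to the share on chromosomes 1 to 10. Spliced loci were 42.3% of Z loci and 46.2% of loci on chromosomes 1 to 10, and 3 of the 30 autosomes had a lower share than Z. This difference turned round among loci with a gene name, where 58.6% of Z loci and 54.4% of loci on chromosomes 1 to 10 were spliced. Of the 603 Z loci with no reference transcript, 131 were spliced (21.7%), against 18.1% of such loci on chromosomes 1 to 10. Their longest chain on Z had 8 exons.

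Variant transcripts, which share a splice junction with a reference and differ elsewhere, were 229 on Z (10.5%) against 4478 on chromosomes 1 to 10 (19.7%). Only chromosome 18, with 74 transcripts in all, had a lower share (9.46%). Transcripts opposite an exon of another gene were 78 on Z (3.57%) against 2413 (10.6%), and again only chromosome 18 was lower, at 1.35%. Exact matches were 5.40% on Z and 7.93% on chromosomes 1 to 10. Contained fragments had a larger share on Z, at 19.4% against 16.9% on chromosomes 1 to 10, and so did single exons reaching into an intron, at 2.98% against 2.03%.

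**Figure D2:**
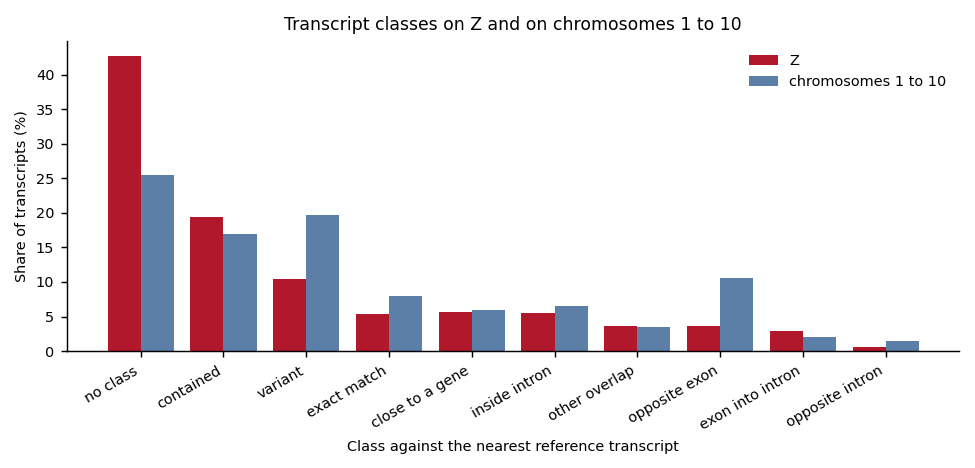
Share of transcripts (y axis, percent) in each class against the nearest reference transcript (x axis) on Z and on chromosomes 1 to 10. Transcripts with no class take 42.8% on Z and 25.5% on chromosomes 1 to 10, while variants take 10.5% and 19.7%, and transcripts opposite an exon 3.57% and 10.6%.

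Taking only the 771 Z transcripts that match, lie in or vary a reference transcript, 55.0% were contained fragments, 29.7% variants and 15.3% exact matches. The 10124 such transcripts on chromosomes 1 to 10 were 37.9% fragments, 44.2% variants and 17.8% exact matches. The Z members were also shorter. Exact matches had a median of 866.5 bases and 3 exons on Z, against 1856 bases and 6 exons on chromosomes 1 to 10. An exact match takes its exon number from its reference, and whether the references on Z are themselves shorter was not tested. Variants had a median of 797 bases and 4 exons, against 2039 bases and 8 exons. Over loci of these classes, the median merged exon length was 1224 bases on Z and 2514 on chromosomes 1 to 10. Each of the 30 autosomes had a longer median, the shortest being 1620 bases on chromosome 18. For the remaining loci the medians were 544 bases on Z and 501 on chromosomes 1 to 10.

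Neighbouring Z loci overlapped less than autosomal ones. Of 731 Z loci with a strand, 169 shared exon bases with a locus on the other strand (23.1%), against 3776 of 9343 (40.4%) on chromosomes 1 to 10. The largest overlap on Z joined XLOC_037356 on the plus strand (24188413 to 24208003) and XLOC_037849 on the minus strand (24190200 to 24208003), neither with a gene name. They shared 6067 exon bases. XLOC_037849 also had the longest merged exons of any Z locus, 8101 bases in 2 transcripts of at most 2 exons, and XLOC_037356 came next with 7751 bases in 4 transcripts of at most 3. No label states a strand protocol, so reads of the 2 strands of this stretch cannot be told apart here. RAI14, an actin-binding ankyrin repeat protein, and AGTPBP1, which trims glutamates from tubulin, also had a locus on the opposite strand, with 1549 and 2284 shared bases.

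Along Z the loci were spread unevenly. In 17 windows of 5 Mb, counted from the first Z locus and with the last one only partly filled, the number of transcripts ran from 28 in the window that starts at 30 Mb to 225 in the one that starts at 10 Mb, with a median of 125. The share with no class ran from 29.3% in the first window to 57.5% in the window from 65 Mb. The lowest window was thus close to the highest autosome (29.2%). The share of named loci was at most 50.0%, below the lowest autosome (54.9%) in each of the 17 windows. The autosome values are those of whole chromosomes, which were not cut into windows, so single stretches of autosomes may lie as low. The largest stretch with no locus ran from 4288290 to 7044773, which is 2756 kb. Over chromosomes 1 to 10 together the largest was longer, at 4.56e+06 bases, so this stretch does not set Z apart. The longest run of neighbouring loci without a name had 31 loci between C5orf33 and NUP155, from 11821112 to 12074761, and 14 of the 31 had a reference transcript.

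**Figure D3:**
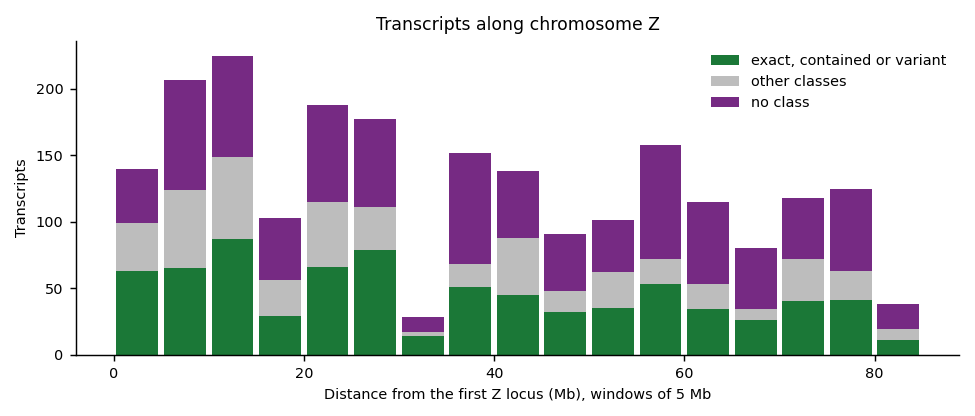
Number of transcripts (y axis) in windows of 5 Mb along Z, by distance from the first Z locus (x axis, Mb), stacked as exact, contained or variant, other classes and no class. Counts run from 28 to 225 transcripts per window, and transcripts with no class occur in all 17 windows.

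A list of 37 genes taken as candidates for a Z and a W copy in birds, for not all of which such a pair is established, had 15 members on Z, 3 on autosomes and 19 with no transcript under their symbol. Each of the 15 had an exact, contained or variant transcript, 6 had an exact match and 8 a variant. Of the 460 protein-coding genes with a proper symbol that RefSeq places on Z, 193 (42.0%) had a transcript under it. An exact, contained or variant one stood on 170 of them. The members found and missing are therefore not read as a trait of such pairs. DMXL1, a large WD-repeat protein, led with 12 transcripts (7 contained, 1 variant, 3 with no class and 1 close to the gene) in 2 loci. Its main locus ran from 75838444 to 75884856 on the minus strand with up to 11 exons. NEDD4L, a ubiquitin ligase that removes sodium channels from the membrane, also had 12, of which 5 were contained or variant and 4 lay inside introns. ZFR, a zinc finger RNA-binding protein, had 11 transcripts in 5 loci, 4 of them contained or variant. KCMF1, a ubiquitin ligase, had 7 transcripts, 3 contained and 3 variant, from 56757556 to 56807539. UBE2R2, a ubiquitin-conjugating enzyme, had 1 exact match of 4 exons and 3 single exons close to the gene.

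Among the members of that list that act on RNA, transcription or protein synthesis, HNRNPK, an RNA-binding protein of the spliceosome, had 1 contained and 1 variant transcript of up to 9 exons from 42464015 to 42490572, and 5 transcripts inside its introns. SUB1, a transcription coactivator, had 5046 bases of merged exons in 1 exact match and 1 variant, with at most 5 exons. RPL17, a protein of the large ribosomal subunit, had 1 exact match, 2 fragments and 1 variant of up to 7 exons from 1102538 to 1106620. MIER3 had 1 contained fragment, in a locus with 255 bases of merged exons, and 3 transcripts of other classes. GOLPH3 of the Golgi, TXNL1 of the thioredoxin family and C18orf25 had 2, 1 and 2 transcripts of the 3 classes. SNX2, a sorting nexin, and ARRDC3, an arrestin domain protein, had a single exact match each, of 5 and 2 exons. Since W partners of such genes can be close in sequence, reads credited to these Z loci may include reads of W copies, which was not tested. Of the best known such pairs, CHD1, HINT1, SPIN1, UBAP2 and SMAD2 were among the 19 with no transcript under their symbols.

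The list of 10 genes of sex determination and gonad function had 0 members on Z, 2 on autosomes and 8 with no transcript under their symbol. DMRT1, the Z-linked gene that directs testis formation in birds, and its neighbours DMRT2 and DMRT3 had no transcript under their symbols. AMH stood on chromosome 30 and NR5A1 on chromosome 19. The list was drawn up for the gonad and holds Z-linked genes such as DMRT1 beside autosomal ones. Of RefSeq's protein-coding genes on Z with a proper symbol, 42.0% had a transcript under it. The 0 members on Z are therefore not read as a result about Z. A missing symbol can also mean another name.

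The list of 47 genes of muscle structure, energy use and growth had 21 members on Z, 7 on autosomes and 19 with no transcript under their symbol. Of the 21, 19 had an exact, contained or variant transcript, 3 an exact match and 10 a variant. The list mixes genes of Z and of autosomes, and 42.0% of RefSeq's protein-coding genes on Z had a transcript under their symbol. These counts are therefore not read as a trait of muscle genes. TPM2, the beta chain of tropomyosin on the thin filament, had 8 transcripts in 4 loci. Of these, 3 were variants in the main locus, from 9462714 to 9486607 on the plus strand with up to 7 exons. A minus-strand locus from 9480530 to 9500847 carried the names CA9 and TPM2 together, and its transcript named TPM2 was opposite an exon. CAST, the calpain inhibitor calpastatin, had 5 contained fragments and 2 variants from 60418191 to 60446285 on the minus strand, and 2 short transcripts on the opposite strand. MUSK, the receptor kinase that gathers acetylcholine receptors at the nerve ending, had 1 fragment of 3 exons from 71076644 to 71086866. MEF2C, a transcription factor of muscle genes, had 1 fragment and 1 variant of at most 2 exons. PGM5, a muscle protein related to phosphoglucomutase, had 2 fragments and 1 variant from 27945496 to 27992456.

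Energy genes on Z ranged from long chains to single junctions. ACO1, the cytosolic aconitase that also senses iron, had 2 fragments and 2 variants from 75148677 to 75177162 with up to 12 exons, the most of any listed gene. PLIN2, a coat protein of lipid droplets, had 2 fragments and 3 variants of up to 7 exons from 35714522 to 35725541. LPL, which frees fatty acids from circulating lipoproteins, and VLDLR, a receptor for such particles, had 1 fragment and 1 variant each, of up to 5 and 6 exons. CKMT2, the creatine kinase of muscle mitochondria, stands on both lists and had 1 exact match of 3 exons and 352 bases. FBP2, the muscle fructose bisphosphatase, had 1 exact match of 2 exons and 123 bases. NDUFS4, a subunit of respiratory complex I, had its name on 1 transcript with no class and on none of the exact, contained or variant kind. HMGCS1 of sterol synthesis had 2 fragments of up to 3 exons.

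Among receptors and signalling genes, IL6ST, the shared signal chain of interleukin 6 type receptors, had 2 fragments and 1 variant with 4641 bases of merged exons. GHR, the growth hormone receptor, had only 1 single exon of 1849 bases that overlapped the gene on the same strand. PIK3R1, the regulatory subunit of phosphoinositide 3-kinase, had 1 fragment and MAP3K1, a kinase upstream of JNK, had 1 of a single exon. FGF10, a secreted growth factor, had 1 exact match of 2 exons, credited to PSE 3. PAM, which amidates peptide hormones, had 5 fragments, and KIF2A, a microtubule-depolymerising kinesin, 2 fragments and 1 variant. Over both lists, 17 of the 33 genes with an exact, contained or variant transcript had a main locus of more than 4 exons. The median over all Z loci with such a transcript was 4 exons.

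**Figure D4:**
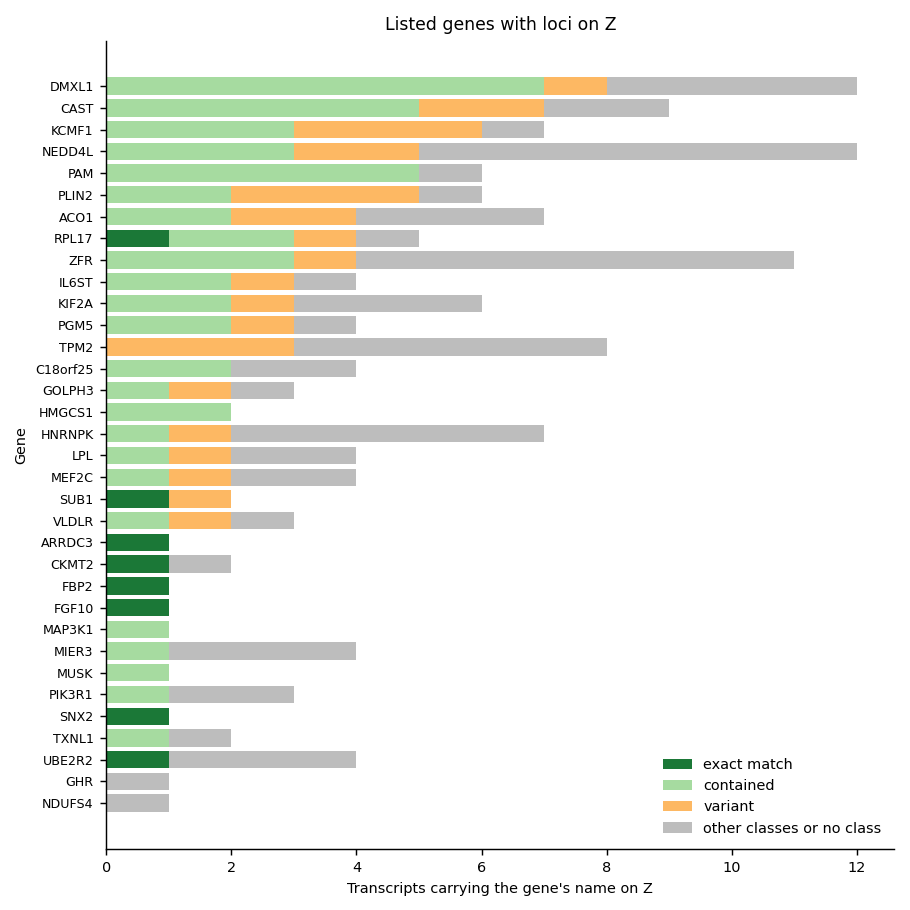
Number of transcripts on Z that carry the name of a listed gene (x axis), 1 bar for each gene shown (y axis), split into exact matches, contained fragments, variants and all others. DMXL1 has 8 and CAST 7 transcripts of the first 3 kinds, while GHR and NDUFS4 have none.

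The Z loci with the most transcripts, 9 to 11 each, included 6 other named genes. KIAA1432 (30082964 to 30128775) had 10 transcripts, 7 of them contained. KIAA1632, KIAA1797 and KIAA0368 had 9 each. RAI14 had 9 with 5 variants, and ZCCHC6, an enzyme that adds uridines to RNA, 9 with 4 variants. The other loci of this rank had no name: XLOC_037231 (9441843 to 9461491) with 11 transcripts, 6 of them single exons reaching into introns, XLOC_037656 (408100 to 520590) with 10 and XLOC_037389 (28754792 to 28826819) with 9. ALPK2, an alpha kinase, was covered by 1 exact match and 1 variant with 6819 bases of merged exons and at most 11 exons. XLOC_037695 (8698915 to 8724945, minus strand), without a name, had 6632 bases. The longest unnamed chain, XLOC_037684 (7577382 to 7591183, minus strand), was a variant of a reference transcript with 10 exons. The next 4 unnamed loci had 9 exons each, XLOC_037231 named above, XLOC_037174, XLOC_037273 and XLOC_037411, and all 4 held exact or contained transcripts. A missing name therefore did not mean a missing reference. Of the 298 names on Z, 122 (40.9%) stood on 2 or more loci, against 31.5% on chromosomes 1 to 10. MTX3, a metaxin of the outer mitochondrial membrane, stood on 14.

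Credits by sample were then compared between Z and the autosomes. Of the Z transcripts, 111, 37, 26 and 1 were credited to PSE 1 to 4, against 1319, 420, 158 and 112 to normal 1 to 4. The samples of both groups were very uneven, and normal 1 alone held 60.4% of the Z transcripts. On chromosomes 1 to 10 normal 1 held 47.8%, and over the 30 autosomes its share ran from 43.6 to 52.9%. The other 7 samples each held a smaller share of Z than of chromosomes 1 to 10. The excess of normal 1 on Z was present in every kind of transcript compared. With no class it held 63.9% on Z and 50.2% on chromosomes 1 to 10, and 60.1% and 47.7% of exact, contained or variant transcripts. Among spliced transcripts the shares were 63.2% and 49.2%, and among single exons 57.8% and 46.2%.

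As a share of the transcripts credited to each sample, Z made up 4.75, 3.18, 3.77 and 2.04% for PSE 1 to 4, and 6.44, 4.43, 3.40 and 3.59% for normal 1 to 4. The PSE value of 2.04% rests on 1 of 49 transcripts. The ranges of the 2 groups overlap. PSE samples together held 8.01% of Z transcripts and 10.4% of those on chromosomes 1 to 10. The gap was wider among spliced transcripts, at 5.94% on Z and 10.1% on chromosomes 1 to 10, among all transcripts of spliced loci, at 6.35% and 10.7%, and among exact, contained or variant transcripts, at 6.74% and 11.2%. Without the transcripts of normal 1 the direction turned, at 20.2% on Z and 19.9% on chromosomes 1 to 10. No test between PSE and normal muscle was made, because a transcript is credited once and the samples' values depend on each other. From normal 1 to 4 and on through PSE 1 to 4, the credits over the whole annotation fell at each step. They were 20486, 9486, 4651 and 3119, then 2337, 1165, 689 and 49. Whether the rule of crediting follows this order of samples was not tested. The shares of credits are therefore not read as traits of a sample or of PSE meat. Library depth and what else may set normal 1 apart were not analysed here.

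Transcripts with no class were more frequent on Z within 7 of the 8 samples. Their share on Z was 39.6, 48.6 and 38.5% for PSE 1 to 3, against 22.9, 21.8 and 20.4% on chromosomes 1 to 10. For normal 1 to 4 it was 45.3, 41.0, 35.4 and 33.0% on Z, against 26.8, 26.0, 24.7 and 22.1%. PSE 4 had 0 transcripts with no class on either. Only 161 Z loci (12.2%) had a transcript credited to a PSE sample, against 16.0% on chromosomes 1 to 10. For 692 Z loci (52.6%) every transcript was credited to normal 1, against 38.9%, which does not mean that other samples lacked them. Of the 35 listed genes on Z, 32 had a transcript credited to normal 1 and 8 had one credited to a PSE sample. The exceptions to normal 1 were MUSK, credited to normal 2, MAP3K1, credited to PSE 1, and FGF10. Of the 151 transcripts of the listed genes, 63.6% were credited to normal 1 and 6.62% to PSE samples. These shares were near the 60.4% and 8.01% of all Z transcripts, so the credits do not set the listed genes apart.

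**Figure D5:**
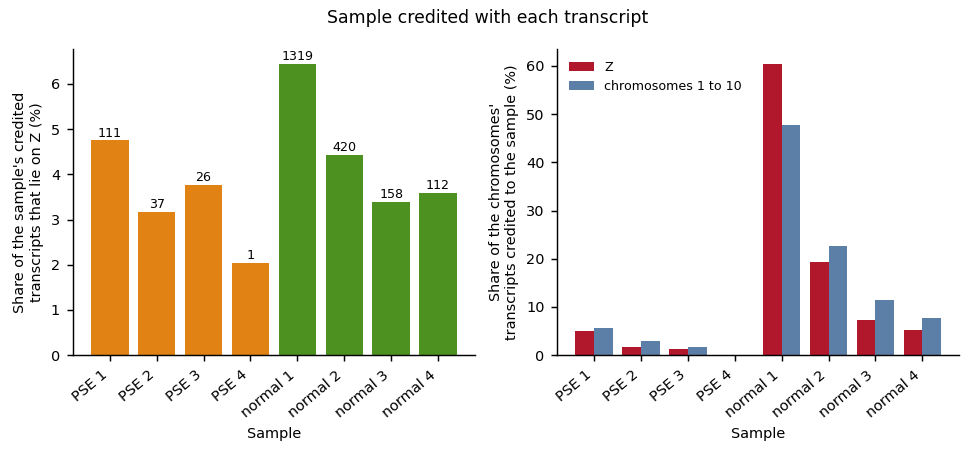
Left, share of each sample's credited transcripts that lie on Z (y axis, percent), with the number on Z above each bar. Right, share of all transcripts on Z and on chromosomes 1 to 10 that is credited to each sample (y axis, percent), with the 4 PSE and the 4 normal samples on the x axis. Normal 1 holds 60.4% of Z and 47.8% of chromosomes 1 to 10, and every other sample holds less of Z.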

How the data were processed

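Per the labels' protocols, libraries were made from 10 µg of RNA from frozen breast muscle, with RNA integrity numbers from 8 upwards. Per the design text, libraries shared lanes in pairs. The submitters' processing notes name TopHat, Cufflinks, HTSeq and DESeq without versions or roles. The genome build, read length, strand protocol and the rule by which a transcript is credited to a sample are not stated by any label or header. The authors deposited a merged transcript annotation, of which exon positions, strand, locus, gene name, class and credited assembly were used. Positions below are the file's own, counted from 1.

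The authors' per-locus counts were left out of every step. Its 8 columns carry no names, so none could be tied to a sample of this study, and columns without such a tie were not used for any purpose, totals included. The planned test of counts between PSE and normal muscle, the level of Z against autosomal loci and the comparison of W counts between columns were not made, and library depth was not analysed here.

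Loci were grouped by chromosome with pandas 2.3.3 and NumPy 2.4.6 (Python 3.11.15). The merged exon length of a locus counts each base once and was checked on made-up exons. Shares were compared with chromosomes 1 to 10 as descriptions, with no test, since the annotation is a single merged object and loci are not replicates. Exact (Clopper-Pearson, 95%) intervals from SciPy 1.17.1 set how far an alternative could move a share before it was reported as moved, and figures were drawn with matplotlib 3.10.9. Genes named are all those on W, the listed genes with a locus on Z, the 10 Z loci with the most transcripts, the 5 with the longest merged exons and the 5 unnamed spliced ones with the most exons. Of these, 1 listed gene is counted but not reported here by name. Others were chosen after their values were seen. The members and the gene lists were chosen with earlier results of these data known.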

Additional observations from a re-analysis of the deposited data

How the results depend on the processing

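Differences are Z minus chromosomes 1 to 10 in percentage points. Of 70 values from alternatives to 6 differences, 68 kept their direction. Of the 70, 47 left out the transcripts credited to 1 sample, which can be too few to turn a direction. PSE 4 had 1 of the 2184 Z transcripts. The other 23 alternatives were reported as the same in 11 cases, as moved in 11 and as reversed in 1. Named loci differed by -28.6, by -25.6 with only spliced loci, -25.4 with only spliced transcripts, -15.8 with only exact, contained and variant transcripts and -31.3 against all autosomes. Transcripts with no class differed by 17.2, by 9.42 with only spliced loci, 1.62 with only named loci and 13.4 with only spliced transcripts. The value of 1.62 is partly built in, since all named loci had a reference transcript and most transcripts with no class did not. Loci with no strand differed by 19.97, and by 10.1 with only named loci. Spliced loci differed by -3.95, and by 4.15 with only named loci, a reversal. Transcripts credited to PSE samples differed by -2.40, by -4.34 with only spliced loci, -4.14 with only spliced transcripts and -4.50 with only exact, contained and variant transcripts. For all of these the cause was not tested.

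Leaving out the transcripts credited to 1 sample at a time, an alternative chosen after seeing the data, gave -29.8 to -21.7 for named loci, 14.6 to 17.8 for no class, 16.6 to 20.1 for no strand, -5.15 to -3.77 for spliced loci, 11.1 to 13.1 for credits to normal 1 and -3.53 to 0.288 for credits to PSE samples. The last turned positive without normal 1. No paired analysis was possible, because no result comes from a test between the groups and the labels do not say which samples shared a lane. Alternatives for counts were not run, since the unnamed count columns were not used. Library depth was not analysed here.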
